A study of Mus musculus with 7 samples.

Results

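Heat shock proteins are molecular chaperones, and 10 of their genes were followed here across fetal mouse prospermatogonia, the arrested precursors of spermatogonia, in which a transcription terminator had been inserted beside the H19/Igf2 imprinting control region (ICR). The genes were chosen by symbol: Hspa1a, Hspa1b, Hspa8, Hsp90aa1, Hsp90ab1, Hsph1, Dnajb1, Hspb1, Hspd1 and Hspe1. All 10 had a row among the 20643 genes of the deposited table, and all 10 passed the filter on low values. Total RNA-seq was done on 7 libraries of sorted germ cells, taken at 15.5 dpc according to the protocol and at 15 dpc according to the source name. Libraries were 3 of genotype H19Ter+neo (replicates 5, 6 and 7), 2 of genotype H19Ter (replicates 3 and 4) and 2 of wild type (WT, replicates 1 and 2). The study's methods describe both mutant genotypes as homozygous. H19Ter carries the terminator cassette alone, and H19Ter+neo carries in addition the Pgkneo selection cassette from which H19Ter was later freed by Cre. The study tested in these cells whether the terminator stops the broad low-level transcript before the ICR, and the comparisons below ask how the chaperone genes differ between the same genotypes.

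The germ cells of the mutants carried an EGFP transgene driven by the Pou5f1 promoter and were released from pooled fetal testes by warm trypsin digestion before sorting. Mutant lines came from 129 embryonic stem cells and were crossed to the transgenic line, so that genotype, line and litter cannot be told apart, and which strain background a library has is not given. The study calls libraries of these genotypes biological replicates, but nothing in the labels says that they came from separate fetuses. The p-values measure the spread between libraries only. Read pairs counted to genes ran from 84.1 to 87.3 M in H19Ter+neo, from 37.5 to 51.2 M in H19Ter and from 45.1 to 45.9 M in WT. Values are counts per M read pairs after the authors' scaling (CPM), tests were run with limma on the deposited log2 CPM, and a gene was called at a Benjamini-Hochberg adjusted p under 0.05 over all 20643 genes. The 17 germ cell markers summed to between 5319 and 5441 CPM in H19Ter+neo, between 4553 and 4720 in H19Ter and between 4821 and 5040 in WT, against 32.2 to 46.3 CPM for the 12 measured Sertoli cell markers over all libraries. The 8 measured endothelial markers, of 9 listed, summed to 42.2 to 48.2 CPM in H19Ter+neo, 44 to 44.6 in H19Ter and 30.1 to 30.4 in WT, and the part of those cells in the results below was not tested. In bulk libraries, fewer cells of a type and less RNA per cell cannot be told apart.

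Chaperones bind unfolded proteins and keep them from aggregating. HSP70 proteins (Hspa genes) hold short hydrophobic stretches in cycles of ATP hydrolysis that J-domain proteins such as DNAJB1 start and nucleotide exchange factors such as HSPH1 complete, and HSP90 proteins take over clients such as kinases and steroid receptors at a later step. HSPD1 (HSP60) and HSPE1 (HSP10) form the barrel and the lid of the mitochondrial folding chamber, and HSPB1 is a small heat shock protein that holds unfolded proteins without ATP. Heat and proteotoxic stress induce many of these genes through heat shock factor 1 (HSF1), which binds inverted GAA repeats called heat shock elements, whereas Hspa8 and Hsp90ab1 are expressed in most cells without stress. Dissociation of tissue at warm temperature is known to induce heat shock and immediate early genes in many cell types.

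Promoter sequences are shown first, because the repeats that HSF1 binds can be read in them. RefSeq windows on GRCm38.p6, with 250 bases before and 50 bases after each start site, were matched for 7 of the 10 genes, and none was matched for Hspa8, Hsp90aa1 and Hsp90ab1. A run of 3 alternating units (GAANNTTCNNGAA, or TTCNNGAANNTTC on the other strand) was found in 0.603% of 32851 windows. Counted by gene, it was found for 0.662% of 27025 genes, and for 3 of the 7 matched genes, Hsph1, Hspd1 and Hspe1. A run of 2 units (GAANNTTC or TTCNNGAA, each its own reverse complement and contained in the longer run) was found in 15.1% of windows. Counted by gene, it was found for 17% of all genes, and for 6 of the 7, all but Dnajb1. The stretches below run 5′ to 3′ on the strand of each gene, and capitals mark the matched repeats.
Hspe1, chr1:55087988-55088147, plus strand: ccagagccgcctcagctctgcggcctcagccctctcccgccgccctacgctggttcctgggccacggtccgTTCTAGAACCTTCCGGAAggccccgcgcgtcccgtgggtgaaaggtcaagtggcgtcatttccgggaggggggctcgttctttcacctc
Hspd1, chr1:55087973-55088132, minus strand: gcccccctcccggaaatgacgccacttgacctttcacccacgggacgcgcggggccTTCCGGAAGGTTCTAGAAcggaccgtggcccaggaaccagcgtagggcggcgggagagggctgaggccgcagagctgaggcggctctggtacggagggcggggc
Hsph1, chr5:149636316-149636415, minus strand: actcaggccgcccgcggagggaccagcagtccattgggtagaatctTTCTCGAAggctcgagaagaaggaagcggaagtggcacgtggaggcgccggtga
Hspa1b, chr17:34959239-34959398, minus strand: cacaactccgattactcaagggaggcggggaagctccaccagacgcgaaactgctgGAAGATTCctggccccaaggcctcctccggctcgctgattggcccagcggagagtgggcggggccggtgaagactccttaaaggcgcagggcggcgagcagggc

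Hspe1 and Hspd1 are neighbours transcribed away from each other, and the 18 capital bases of both are the same stretch, chr1:55088059-55088076, read on opposite strands. It lies 89 to 72 bases before the Hspe1 start site at 55088148 and 144 to 127 bases before the Hspd1 start site at 55087932, which are 216 bases apart. RefSeq gives Hspd1 a further start site at 55088243, whose window holds no match, and the stretch lies after that start. The annotated spans of the genes overlap by 112 bases on opposite strands. In Hsph1 the run of 3 units lies at chr5:149636288-149636300 and reads TTCTGGAAAGTTC. RefSeq gives Hsph1 start sites at 149636315 and 149636336, and the run covers bases 16 to 28 from the first and 37 to 49 from the other. The annotated gene reaches 149636376, so that TTCTCGAA, at 149636362-149636369, lies inside it. Hspa1a, which neighbours Hspa1b on chromosome 17, has the same GAAGATTC at the same distance, 104 to 97 bases before its start site, and 159 of the 160 bases printed for Hspa1b are the same in Hspa1a. Hspb1 has GAAGTTTC and GAACCTTC, 117 to 110 and 97 to 90 bases before its start site. These matches are a description of the letters in each window and not of binding.

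Of the 10 chaperone genes, none was called higher and 5 were called lower in H19Ter+neo against WT: Hspa8, Hsp90ab1, Hsph1, Dnajb1 and Hspd1. None was called higher and 6 were called lower in H19Ter against WT, the same 5 genes and Hsp90aa1. The falls ran from 0.36 to 0.93 on the log2 scale in H19Ter+neo and from 0.24 to 0.64 in H19Ter. Both comparisons use the same WT libraries. Hspa1a, Hspa1b, Hspe1 and the small heat shock gene Hspb1 were called in neither.

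Calls were common across the genome, and the chaperone counts are to be read against them. In H19Ter+neo against WT, 26.7% of all genes were called lower and 27.7% higher, and the share called lower was 40.7% among the 3430 genes with a mean log2 CPM of at least 6. In H19Ter against WT, 11.0% were called lower and 14.1% higher, and 20.6% of the same highly expressed genes were called lower. The median log2 difference of the 10 chaperone genes was -0.24 in H19Ter+neo against WT, where that of all genes was 0.01. It was -0.39 in H19Ter against WT, where that of all genes was -0.01. Libraries of the groups did not overlap for 6 chaperone genes in H19Ter+neo against WT, where 71.8% of all genes did not overlap. They did not overlap for 9 in H19Ter against WT, where the share was 67.5%. Of those 9, 8 were lower in H19Ter and 1, Hspb1, was higher. H19Ter+neo against H19Ter called 3 of the 10 higher (Hsp90aa1, Hspe1 and Hspa1b) and 1 lower (Hsp90ab1), with 12.5% of all genes higher, 15.2% lower and 56.3% without overlap. The chaperone median in that comparison was 0.04 and that of all genes 0.01.

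**Figure D1:**
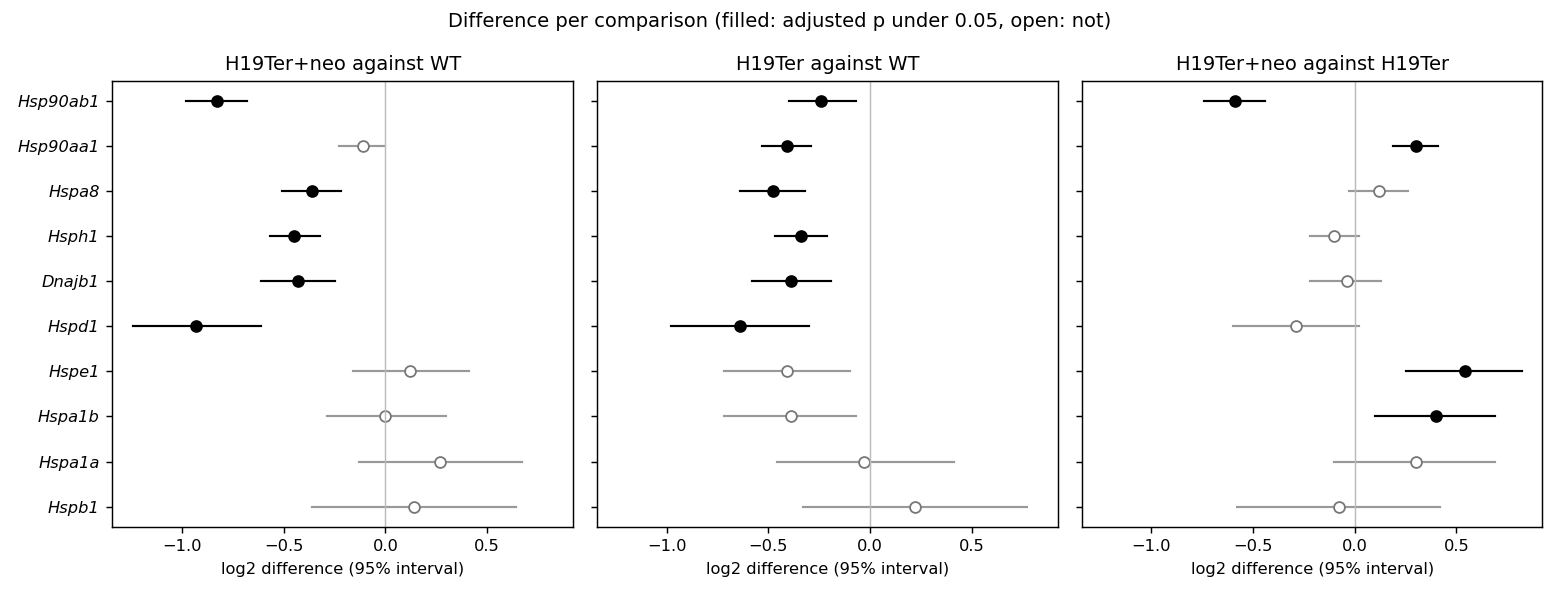
Log2 difference (x axis) of each chaperone gene (y axis) in the 3 comparisons, with its 95% interval; filled points passed an adjusted p of 0.05 and open points did not. Filled points against WT all lie below 0, and only Hsp90ab1 is lower in H19Ter+neo against H19Ter, where Hsp90aa1, Hspe1 and Hspa1b are higher.

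Levels spanned a wide range. Per kb of exon, Hsp90ab1 ran from 547 to 1073 CPM per kb over the 7 libraries, Hsp90aa1 from 516 to 716 and Hspa8 from 386 to 574. Hspe1 followed at 116 to 216 CPM per kb, then Hspd1 at 41.6 to 99.1, Hsph1 at 46.5 to 66.4 and Dnajb1 at 22.3 to 33.2. The heat-inducible HSP70 genes were low, with 8.09 to 12.7 CPM per kb for Hspa1b and 2.66 to 4.44 for Hspa1a, and Hspb1 was lowest at 1.4 to 2.07. The ranges of the leading 3 genes overlapped, as did those of Hspd1 and Hsph1, and other neighbours in this order did not overlap. Reads shared by near-identical genes are lost from these counts, whereas the full exon length was used. Genes with much shared sequence, such as Hspa1a and Hspa1b, may therefore read too low in this order.

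The constitutive HSP90 gene Hsp90ab1 (chromosome 17, 45567775 to 45573271, minus strand) had 1742, 1905 and 1639 CPM in H19Ter+neo, 2703 and 2585 CPM in H19Ter and 3021 and 3219 CPM in WT. The 3 genotypes were fully separated, H19Ter+neo being lowest and WT highest. The log2 difference was -0.83 ± 0.07 (SE) in H19Ter+neo against WT (limma adjusted p = 1.54e-05), -0.24 ± 0.07 in H19Ter against WT (adjusted p = 0.0394) and -0.59 ± 0.07 in H19Ter+neo against H19Ter (adjusted p = 0.000312). The call in H19Ter against WT was lost without WT replicate 1, WT replicate 2, H19Ter replicate 3 or H19Ter replicate 4, with differences from -0.28 to -0.19, and also when libraries were given the same total (-0.16).

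The inducible HSP90 gene Hsp90aa1 (chromosome 12, 110690605 to 110702728, minus strand) had 2568, 2480 and 2550 CPM in H19Ter+neo, 2090 and 2029 CPM in H19Ter and 2659 and 2816 CPM in WT. Here H19Ter was the low genotype, and H19Ter+neo lay just under WT without overlap. It fell by 0.41 in H19Ter against WT (SE 0.06, limma adjusted p = 0.00136) and was higher by 0.30 in H19Ter+neo against H19Ter (SE 0.05, adjusted p = 0.00247). The difference of -0.11 in H19Ter+neo against WT did not pass (SE 0.05, adjusted p = 0.087), and its 95% interval ran from -0.23 to 0.00. That difference was called under limma voom (adjusted p = 0.041) and with the GC and length trend removed (-0.14, adjusted p = 0.0273).

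Within a library, the balance of the HSP90 genes differed between genotypes. The log2 ratio of Hsp90aa1 over Hsp90ab1 read pairs was 0.56, 0.38 and 0.64 in H19Ter+neo, -0.37 and -0.35 in H19Ter and -0.18 and -0.19 in WT. Hsp90aa1 had more read pairs than Hsp90ab1 in each H19Ter+neo library and fewer in the other 4. An exact permutation test over libraries (two-sided) gave p = 0.2 for H19Ter+neo against either genotype, the smallest it can give with 3 against 2, and p = 0.333, the smallest with 2 against 2, for H19Ter against WT. A ratio within a library does not depend on its scaling. Read pairs were not adjusted for exon length or for sequence shared with other genes. The ratio therefore compares libraries and does not say which gene is expressed more.

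**Figure D2:**
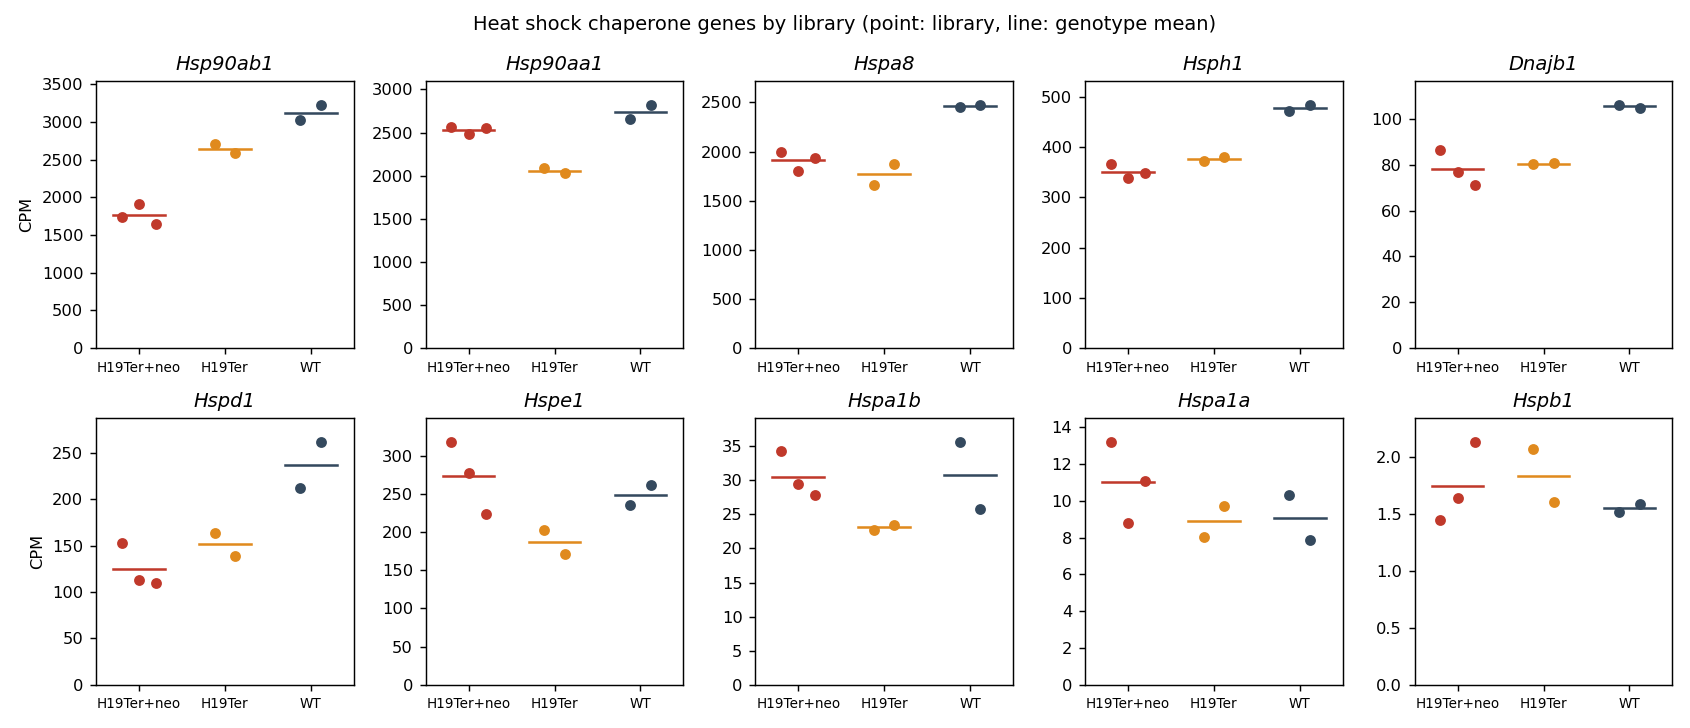
CPM (y axis, from 0, a scale for each gene) of the 10 chaperone genes in each library by genotype (x axis); points are libraries and lines are genotype means. Hsp90ab1 steps down through all 3 genotypes, Hsp90aa1 is lowest in H19Ter, and the points of Hspa1a are mixed. Those of Hspb1 in H19Ter+neo overlap both other genotypes, and its H19Ter points lie just above WT.

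Hspa8, the constitutive HSC70 that serves folding and clathrin uncoating, lies on chromosome 9 (40800984 to 40810087, plus strand). It had 2000, 1803 and 1936 CPM in H19Ter+neo, 1660 and 1874 CPM in H19Ter and 2451 and 2470 CPM in WT. Every mutant library was below both WT libraries, and the mutant genotypes overlapped. The log2 difference was -0.36 ± 0.07 (SE) in H19Ter+neo against WT (limma adjusted p = 0.00106) and -0.48 ± 0.07 in H19Ter against WT (adjusted p = 0.00202).

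Hspa8 has near-identical processed pseudogenes, which are reverse-transcribed copies of its mRNA, and the closest, Gm15459 on chromosome 5 (5781615 to 5783555), moved the other way. Gm15459 was picked for this description after its values had been seen. It had 293, 338 and 252 CPM in H19Ter+neo, 452 and 306 CPM in H19Ter and 24.5 and 25.4 CPM in WT, a log2 difference of 3.55 ± 0.15 (SE) in H19Ter+neo and 3.90 ± 0.16 in H19Ter against WT (limma adjusted p = 6.05e-07 and 1.53e-06). Of the 1941 bases of the Hspa8 coding sequence, 1936 are the same in Gm15459 (99.7%) with no gap. The 5 substitutions, written as the Hspa8 base, the position from the A of the start codon and the Gm15459 base, are G114A, C414T, C549T, G1222A and C1440T. Reads were 50 bases long at each end, and sequence outside the coding part was not compared. A read pair wholly within the coding sequence can be placed in one or the other only where it covers such a base. Examples are these stretches of 41 bases, where the capital is the base that differs.
Hspa8, positions 94 to 134: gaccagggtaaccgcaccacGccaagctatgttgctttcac
Gm15459, positions 94 to 134: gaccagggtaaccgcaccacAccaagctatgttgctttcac
Hspa8, positions 1420 to 1460: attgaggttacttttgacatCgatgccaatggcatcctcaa
Gm15459, positions 1420 to 1460: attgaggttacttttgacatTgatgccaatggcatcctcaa

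A further Hspa8 pseudogene, Gm8337 on chromosome 1 (47657693 to 47659630), was far lower in H19Ter+neo. It shares 7.62% of the 50-base windows of Hspa8, and it too was picked after its values had been seen. It had 2.32, 2.07 and 2.5 CPM in H19Ter+neo, 25.7 and 23 CPM in H19Ter and 33 and 33.4 CPM in WT. The log2 difference was -3.84 ± 0.12 (SE) in H19Ter+neo against WT and -0.45 ± 0.13 in H19Ter against WT (limma adjusted p = 9.71e-08 and 0.0286). Gm8355 on chromosome 10, which shares 28.5% of the windows, had 1.7, 2.01 and 1.76 CPM in H19Ter+neo, 6.99 and 5.29 CPM in H19Ter and 6.72 and 5.68 CPM in WT. It was lower by 1.75 in H19Ter+neo against WT (SE 0.17, limma adjusted p = 3.61e-05), with -0.02 and no call in H19Ter. Gm6210 on chromosome 6, which shares 22.5%, was at -0.44 in both mutants against WT and passed in neither.

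Hspa8 and its 5 measured copies summed to 2299, 2146 and 2193 CPM in H19Ter+neo, 2145 and 2210 CPM in H19Ter and 2517 and 2536 CPM in WT. Every mutant library stayed below both WT libraries. The summed log2 difference was -0.19 ± 0.05 (SE) in H19Ter+neo against WT (limma adjusted p = 0.00937), where Hspa8 alone gave -0.36. In H19Ter against WT the sum gave -0.21 ± 0.06 (adjusted p = 0.0212), where Hspa8 alone gave -0.48. Both calls were kept. A copy here is any annotated gene that shares at least 1% of the 50-base windows of Hspa8. The 13 copies so counted include noncoding RNA genes, with shares down to 1.19%. Only 5 of the 13, all pseudogenes, had a value, and the sum does not recover reads placed in no gene. Whether the copies are transcribed or carry reads of Hspa8 was not tested. Of all 50-base windows of the longest annotated transcript, 52.7% of those of Hspa8 were also found in another annotated gene, as were 66.3% for Hspa1a, 62.3% for Hspa1b, 58.5% for Hsp90aa1, 51.6% for Hspb1, 44.8% for Hspd1, 8.2% for Hspe1, 4.49% for Hsp90ab1 and 0.441% for Dnajb1, and 0 for Hsph1. The levels of the genes at the upper end of this range are therefore less certain than those of Hsph1 and Dnajb1.

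**Figure D3:**
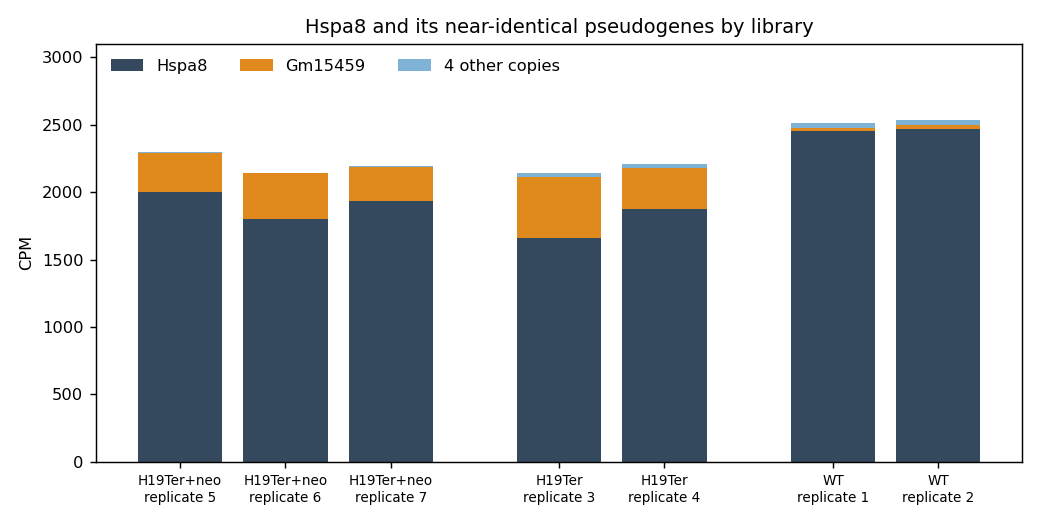
CPM (y axis, from 0) of Hspa8, of its pseudogene Gm15459 and of 4 other measured copies, stacked for each library (x axis). Gm15459 adds 252 to 452 CPM in the 5 mutant libraries and 24.5 to 25.4 CPM in WT, where the Hspa8 bar is tallest.

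Hsph1 and Dnajb1, the partners of HSP70, share almost no sequence with other genes and fell in both mutants. Hsph1 (chromosome 5, 149614287 to 149636376, minus strand) had 366, 338 and 349 CPM in H19Ter+neo, 373 and 380 CPM in H19Ter and 472 and 483 CPM in WT. It fell by 0.45 in H19Ter+neo (SE 0.05, limma adjusted p = 0.000108) and by 0.34 in H19Ter against WT (SE 0.06, adjusted p = 0.00385), and both calls held without any 1 library. Dnajb1 (chromosome 8, 83608193 to 83612653, plus strand) had 86.7, 77.1 and 71.4 CPM in H19Ter+neo, 80.3 and 80.8 CPM in H19Ter and 106 and 105 CPM in WT. Mutant and WT libraries did not overlap for either gene, and the mutants lay close together. Dnajb1 fell by 0.43 in H19Ter+neo against WT (SE 0.08, limma adjusted p = 0.00127) and by 0.39 in H19Ter against WT (SE 0.09, adjusted p = 0.012). The last call was lost without WT replicate 1, WT replicate 2, H19Ter replicate 3 or H19Ter replicate 4, although the difference stayed between -0.40 and -0.38. Between the mutants the difference was -0.10 for Hsph1 (95% interval -0.22 to 0.02) and -0.04 for Dnajb1 (-0.22 to 0.13), and neither passed.

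The mitochondrial chaperonin genes, which share their start region, diverged in H19Ter+neo. Hspd1 (chromosome 1, 55077835 to 55088243, minus strand) had 153, 113 and 110 CPM in H19Ter+neo, 164 and 139 CPM in H19Ter and 212 and 262 CPM in WT. Both mutants were below WT and overlapped each other. Hspd1 fell by 0.93 in H19Ter+neo against WT (SE 0.14, limma adjusted p = 0.000379), the largest fall among the 10 genes, and by 0.64 in H19Ter against WT (SE 0.15, adjusted p = 0.015). The pseudogene Hspd1-ps3 shares 42.8% of the 50-base windows of Hspd1 and had no value. A sum with copies, as made for Hspa8, was therefore not possible for Hspd1. The H19Ter call was lost without WT replicate 2 (-0.49) or H19Ter replicate 4 (-0.52). H19Ter+neo replicate 5 was the highest of its group, and without it Hspd1 was called lower in H19Ter+neo against H19Ter as well (-0.44, against -0.29 and no call with all libraries). H19Ter+neo replicate 5 and H19Ter replicate 3, the highest of their groups for Hspd1, were also the highest for the 6 measured Leydig cell markers of 7 listed (summed to 31.7, 8.45 and 6.72 CPM in H19Ter+neo, 28 and 12.4 in H19Ter and 13.4 and 17 in WT) and for the 11 interstitial and peritubular markers (88.2, 49.6 and 55.9 CPM in H19Ter+neo, 129 and 64.2 in H19Ter and 54.3 and 67.8 in WT). The part of those cells was not tested.

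Hspe1 (chromosome 1, 55088132 to 55091307, plus strand) had 318, 277 and 224 CPM in H19Ter+neo, 203 and 171 CPM in H19Ter and 236 and 262 CPM in WT. H19Ter+neo spread around WT, and H19Ter lay below both. Hspe1 was higher by 0.54 in H19Ter+neo against H19Ter (SE 0.13, limma adjusted p = 0.012), a call lost without H19Ter replicate 4 (0.41). Against WT it did not pass in H19Ter+neo (0.12, SE 0.13, adjusted p = 0.434) or in H19Ter (-0.41, SE 0.14, adjusted p = 0.0536). In H19Ter against WT it was called without H19Ter+neo replicate 5 or 7, and in H19Ter+neo against WT it was called higher without H19Ter+neo replicate 7 (0.26). In H19Ter against WT it was also called with only those groups fitted (adjusted p = 0.00119) and with median-ratio size factors (adjusted p = 0.0473). H19Ter+neo replicate 5 and H19Ter replicate 3, which led their groups for the Leydig and interstitial markers, were the highest of their groups here too.

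The log2 ratio of Hspe1 over Hspd1 read pairs was 1.06, 1.29 and 1.03 in H19Ter+neo, 0.31 and 0.30 in H19Ter and 0.15 and 0.00 in WT. H19Ter+neo libraries thus had 2.04 to 2.45 Hspe1 read pairs for each of Hspd1, against 1.23 to 1.24 in H19Ter and 0.999 to 1.11 in WT, with no overlap between genotypes. The mean difference was 1.05 in H19Ter+neo against WT and 0.82 in H19Ter+neo against H19Ter (exact permutation test, two-sided p = 0.2 each, the smallest it can give), and 0.23 in H19Ter against WT (p = 0.333, also the smallest). Which strand setting the authors counted with is not given, so reads from the overlapping ends of the genes may have been left out or taken by either.

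**Figure D4:**
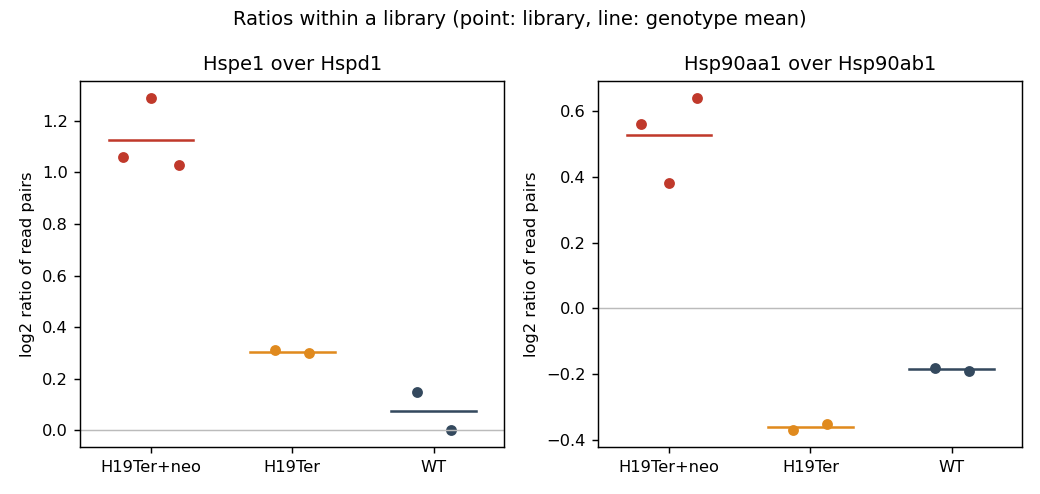
Log2 ratio of read pairs within each library (y axis) for Hspe1 over Hspd1 and for Hsp90aa1 over Hsp90ab1, by genotype (x axis); points are libraries and lines are means. H19Ter+neo libraries lie at 1.03 to 1.29 in the first ratio and at 0.38 to 0.64 in the other, above every H19Ter and WT library.

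Hspa1b, Hspa1a and Hspb1 were called neither higher nor lower against WT. They are not the only inducible chaperone genes followed here. Hsp90aa1, the inducible HSP90 gene, was called lower in H19Ter (-0.41) and was not called in H19Ter+neo. Hspa1b (chromosome 17, 34956436 to 34959238, minus strand) had 34.3, 29.4 and 27.9 CPM in H19Ter+neo, 22.7 and 23.5 CPM in H19Ter and 35.6 and 25.8 CPM in WT. All H19Ter+neo libraries lay between the WT libraries, and both H19Ter libraries lay below them. Hspa1b was higher by 0.40 in H19Ter+neo against H19Ter (SE 0.13, limma adjusted p = 0.0477), a call lost under several alternatives, among them without H19Ter replicate 3 (0.37), H19Ter replicate 4 (0.42), H19Ter+neo replicate 5 (0.31) or H19Ter+neo replicate 6 (0.42). The difference was 0.00 in H19Ter+neo (95% interval -0.29 to 0.30) and -0.39 in H19Ter (adjusted p = 0.0717) against WT. The H19Ter difference passed without WT replicate 2 (-0.63), without H19Ter+neo replicate 5 (-0.39) and with only those groups fitted (adjusted p = 0.0225).

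Hspa1a (chromosome 17, 34969190 to 34972156, minus strand) had 13.2, 8.8 and 11.1 CPM in H19Ter+neo, 8.06 and 9.73 CPM in H19Ter and 10.3 and 7.88 CPM in WT. All genotypes overlapped. Its difference was 0.27 in H19Ter+neo (95% interval -0.13 to 0.67) and -0.03 in H19Ter (-0.46 to 0.41) against WT. As most of their sequence is shared, their sum was also tested, which does not recover reads placed in neither gene. It was 47.5, 38.2 and 39.1 CPM in H19Ter+neo, 30.7 and 33.2 CPM in H19Ter and 46 and 33.7 CPM in WT, and no comparison passed. The summed difference was 0.07 in H19Ter+neo against WT (limma adjusted p = 0.667), -0.30 in H19Ter against WT (adjusted p = 0.154) and 0.37 in H19Ter+neo against H19Ter (adjusted p = 0.0607).

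Hspb1 (chromosome 5, 135887919 to 135889563, plus strand) rested on 62 to 184 read pairs per library. It had 1.45, 1.64 and 2.13 CPM in H19Ter+neo, 2.07 and 1.6 CPM in H19Ter and 1.52 and 1.59 CPM in WT. The 95% intervals against WT, from -0.36 to 0.64 in H19Ter+neo and from -0.33 to 0.77 in H19Ter, leave room for a change of either sign. The 21 measured immediate early genes, which answer to the same dissociation, summed to 344 to 419 CPM in H19Ter+neo, 434 to 445 in H19Ter and 427 to 456 in WT, and 3 were called higher and 8 lower in H19Ter+neo, and 3 higher and none lower in H19Ter against WT. Of all genes, 27.7% were higher and 26.7% lower in H19Ter+neo, and 14.1% higher and 11.0% lower in H19Ter.

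All 5 measured genes of the heat shock factor list were called in H19Ter+neo against WT, 3 higher and 2 lower, where 27.7% of all genes were called higher and 26.7% lower. Hsf1, the main stress-responsive factor, had a mean log2 CPM of 5.26 in H19Ter+neo, 5.54 in H19Ter and 5.71 in WT. It fell by 0.44 in H19Ter+neo (SE 0.08, limma adjusted p = 0.00153) and did not pass in H19Ter (-0.16, adjusted p = 0.217). Hsf2, which is known for a role in male germ cells, was at 8.18 in H19Ter+neo, 7.92 in H19Ter and 8.01 in WT, and was called higher in H19Ter+neo against WT by 0.17 (SE 0.06, adjusted p = 0.0306). Hsf3 was at 3.67 in H19Ter+neo, 3.20 in H19Ter and 1.13 in WT, higher than in WT by 2.54 in H19Ter+neo (SE 0.23, adjusted p = 2.57e-05) and by 2.08 in H19Ter (SE 0.26, adjusted p = 0.000918). Hsf5, a factor of the testis, was higher by 0.50 in H19Ter+neo and 0.57 in H19Ter (SE 0.11 and 0.12, adjusted p = 0.00266 and 0.00795). Hsbp1, whose product binds HSF1 and limits it, fell by 0.42 in H19Ter+neo (SE 0.14, adjusted p = 0.0241) and did not pass in H19Ter (-0.38, adjusted p = 0.0901). Of the 6 listed genes, 5 were measured, and 2 of them were called in H19Ter against WT, both higher. There, 14.1% of all genes were called higher and 11.0% lower.

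The wider chaperone network was taken from 9 lists holding 106 genes other than the 10, of which 100 were measured. In H19Ter+neo against WT, 45 were called lower and 12 higher, with a median difference of -0.22. In H19Ter against WT, 26 were called lower and 7 higher, with a median of -0.16, and in H19Ter+neo against H19Ter 25 were lower and 14 higher (median -0.05). Against WT, the shares called lower lie above those of all genes given above, and closer to those of highly expressed genes. Between the mutants, 15.2% of all genes were lower and 12.5% higher.

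Cochaperones that work with HSP90 and HSP70 held 15 lower and 3 higher of 22 in H19Ter+neo against WT, with a median of -0.32. In H19Ter against WT, 9 were lower and 1 higher, with a median of -0.15. The shares over all genes were 26.7% lower and 27.7% higher in H19Ter+neo, and 11.0% lower and 14.1% higher in H19Ter. Stip1, the adaptor that passes clients from HSP70 to HSP90, fell by 0.69 in H19Ter+neo and 0.36 in H19Ter (SE 0.07 each, limma adjusted p = 3.28e-05 and 0.00816). Bag3, a stress-inducible exchange factor for HSP70, fell by 1.15 in H19Ter+neo against WT (SE 0.10, adjusted p = 1.81e-05) and by 1.39 in H19Ter+neo against H19Ter (adjusted p = 2.9e-05), with 0.24 and no call in H19Ter against WT. Cacybp fell by 0.64 in H19Ter against WT (SE 0.16, adjusted p = 0.0171), was at -0.04 in H19Ter+neo, and was higher by 0.60 in H19Ter+neo against H19Ter (adjusted p = 0.0125). Unc45b, a myosin chaperone with a mean log2 CPM of 0.26, was higher by 0.91 in H19Ter+neo and by 1.28 in H19Ter (adjusted p = 0.0118 and 0.0102).

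Of 21 heat-inducible targets, some of which also stand in other lists, 11 were lower and 2 higher in H19Ter+neo against WT. There, 26.7% of all genes were lower and 27.7% higher. In H19Ter against WT, where 11.0% of all genes were lower and 14.1% higher, 8 of the targets were lower and 1 higher. Serpinh1 (HSP47), the collagen chaperone, had the largest called fall in each, 1.23 in H19Ter+neo (SE 0.16, limma adjusted p = 0.000177) and 0.89 in H19Ter (SE 0.18, adjusted p = 0.00749). Collagen is made mainly by somatic cells, and the 11 interstitial and peritubular markers summed to 49.6 to 88.2 CPM in H19Ter+neo, 64.2 to 129 in H19Ter and 54.3 to 67.8 in WT; their part in the Serpinh1 values was not tested. Hspb8, a small heat shock gene and the partner of Bag3, was higher by 1.02 in H19Ter+neo and by 0.91 in H19Ter (adjusted p = 0.00753 and 0.0408) at a mean log2 CPM of 1.42.

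The cytosolic chaperonin TRiC folds actin and tubulin, and prefoldin delivers to it. Of their 15 genes, 7 were lower and none higher in H19Ter against WT, where 11.0% of all genes were lower and 14.1% higher. In H19Ter+neo against WT, 4 were lower and 1 higher, and the shares of all genes were 26.7% lower and 27.7% higher. The count lower in H19Ter+neo is thus near the share of all genes. All 15 had a negative difference in H19Ter against WT, from -0.48 for Pfdn4 (limma adjusted p = 0.0292) upward, and 11 of 15 in H19Ter+neo. Tcp1, a TRiC subunit, was the 1 called higher in H19Ter+neo, by 0.15 (SE 0.05, adjusted p = 0.0403), and Pfdn2, a prefoldin subunit, the largest fall (1.12, SE 0.13, adjusted p = 0.000101). Between the mutants 4 were higher in H19Ter+neo and 2 lower, beside 12.5% of all genes higher and 15.2% lower.

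Chaperones of the endoplasmic reticulum had 11 of 14 lower in H19Ter+neo and 4 of 14 in H19Ter against WT. The shares of all genes called lower were 26.7% in H19Ter+neo and 11.0% in H19Ter. Hyou1, the large HSP70 relative of that compartment, fell by 1.05 in H19Ter+neo and by 0.45 in H19Ter (SE 0.09 and 0.10, limma adjusted p = 2.16e-05 and 0.0118), and Hsp90b1 (GRP94), the gene of the list with the highest CPM, fell by 0.25 in H19Ter+neo and by 0.33 in H19Ter (adjusted p = 0.0143 and 0.0149). Dnajb9, a cochaperone of the HSP70 of that compartment, was the 1 called higher in H19Ter+neo, by 0.63 (SE 0.08, adjusted p = 0.000185), with 0.00 in H19Ter. Of 12 other mitochondrial chaperones and proteases, 4 were lower in H19Ter+neo and none was called in H19Ter. The share called lower in H19Ter+neo was 26.7% of all genes and 40.7% of highly expressed genes.

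The remaining lists were mixed. They are to be read against all genes, with 26.7% lower and 27.7% higher in H19Ter+neo and 11.0% and 14.1% in H19Ter. Of 8 other HSP70 and HSP110 genes, 3 were lower and 2 higher in H19Ter+neo and 1 lower and 2 higher in H19Ter against WT. Hspa4, a relative of Hsph1 and the gene with the highest CPM of the list, fell by 0.31 in H19Ter+neo and by 0.24 in H19Ter (limma adjusted p = 0.00135 and 0.0217). Of 11 measured J-domain genes, 1 was lower and 1 higher in H19Ter+neo and 3 lower and 1 higher in H19Ter. Dnajb12, a J-domain protein of the endoplasmic reticulum membrane, fell by 1.01 in H19Ter+neo and by 0.34 in H19Ter (adjusted p = 4e-05 and 0.0469), and Dnajb13, a gene of sperm flagella, was higher by 1.26 in H19Ter+neo and by 1.21 in H19Ter (adjusted p = 0.000161 and 0.00194). Of 6 measured small heat shock genes, Hspb8 was called higher in both mutants, and Hspb11, named for this family but a part of intraflagellar transport, fell by 0.51 in H19Ter (adjusted p = 0.0283).

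**Figure D5:**
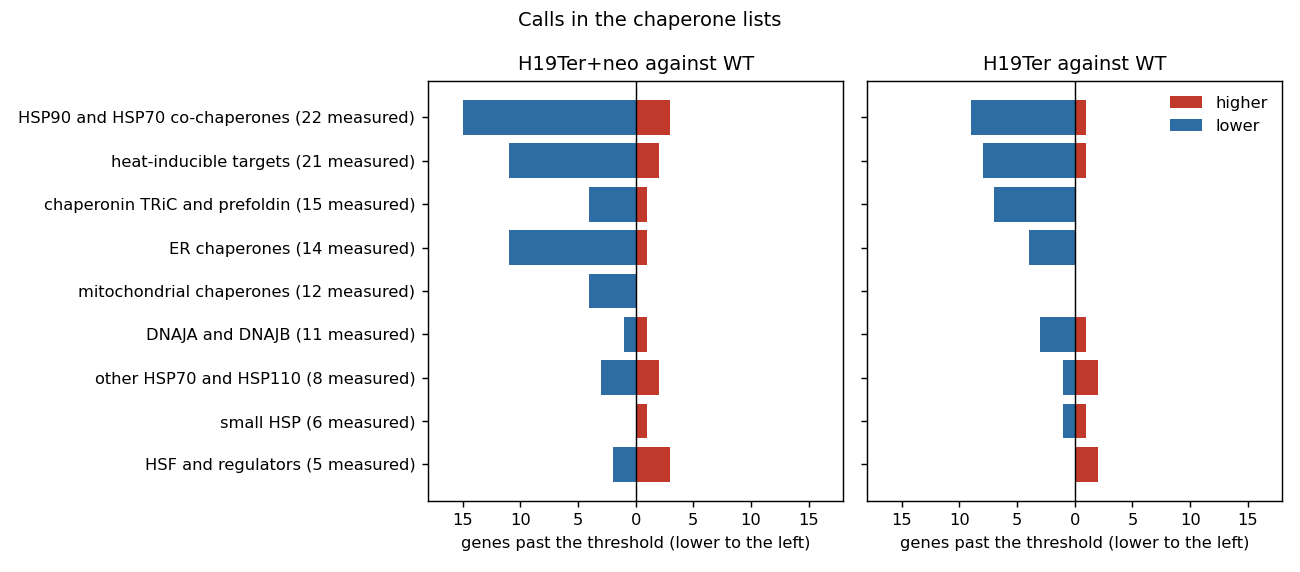
Number of genes called lower (left of 0) and higher (right of 0) against WT on the x axis for 9 chaperone lists (y axis), in H19Ter+neo and in H19Ter; a gene can be in more than 1 list. Cochaperones have 15 lower in H19Ter+neo and 9 in H19Ter, and endoplasmic reticulum chaperones have 11 lower in H19Ter+neo and 4 in H19Ter. Of all genes, 26.7% were lower in H19Ter+neo and 11.0% in H19Ter.

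Among the 10 genes, Hsph1 and Dnajb1 had the most similar course over the 7 libraries, with a root mean square distance of 0.066 between their centred log2 values, followed by Hspa8 and Hsph1 (0.10) and Hspa8 and Dnajb1 (0.106). Hspa1a was the farthest from Hsp90ab1 and from Hspd1 (0.558 each). In a search of 14205 genes with a mean log2 CPM of at least 1, Hsph1 lay closest to Rdh11 (0.020) and Ythdf2 (0.023), Dnajb1 to Gtf2h5 (0.023), Hspe1 to Slirp (0.024) and then Rpl15 (0.046), and Hsp90ab1 to Surf6 (0.030). With 7 libraries in 3 groups, many genes share such a course, and the distances are a description.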

How the data were processed

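Total RNA-seq libraries (50-bp paired end) of sorted prospermatogonia were grouped by the genotype in the labels. Per the study's methods, the authors used Trim Galore 0.6.0 for trimming and STAR 2.7.8, on mm10, for alignment and for read counts of each gene; edgeR is named in the submitters' processing notes. STAR's gene counts keep only uniquely placed reads, so that reads shared by near-identical genes are lost. Neither annotation release nor strand setting is given. The authors deposited log2 CPM after library scaling with a mean prior count of 2. Undoing log and prior gave whole read pairs for 100% of values (tolerance 1e-04), from which CPM, ratios and sums were computed.

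The log2 values as deposited were fitted with limma 3.58.1 (R 4.3.3) with genotype as the only factor, all 7 libraries and a mean-variance trend, two-sided. The filter of 0.1 CPM in 2 libraries removed 0 genes. The fit was also run on simulated data with far fewer changed genes than were called here, and no result rests on it. Alternatives were other scalings, prior counts of 0.5 and 5, a filter of 1 CPM, limma voom on recovered reads, fits of only the groups compared, each library left out, thinning to 37546716 read pairs, removal of a GC and length trend, summing Hspa1a with Hspa1b and, chosen after seeing the data, summing each gene with its near-identical copies. Log2 CPM is relative: giving libraries the same total moved the median of all genes by 0.08 in H19Ter against WT, and the share of calls that were higher to 72.5%, against 56.2% as deposited; for H19Ter+neo against H19Ter the share was 32% against 45.3%.

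The 10 genes and the lists were chosen with earlier results of these data known. Named genes were the 10, every measured heat shock factor or regulator and, of each other list, the 3 with the highest mean log2 CPM and the called genes with the largest rise and fall in each mutant; of the first, only some are described. Coordinates are from GENCODE vM21 (GRCm38), promoters from RefSeq (GRCm38.p6). No column of another series was present.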

Additional observations from a re-analysis of the deposited data

How the results depend on the processing

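In H19Ter against WT, 6 chaperone genes were lower as deposited, 8 with only those groups fitted (Hspe1 and Hspa1b added), 7 with median-ratio size factors (Hspe1 added) and 5 with the same total per library (Hsp90ab1 lost). In H19Ter+neo against WT, 6 and not 5 were lower under limma voom and with the GC and length trend removed, Hsp90aa1 being added. In H19Ter+neo against H19Ter, 2 and not 3 were higher with the same total, under voom, after thinning and with copies summed, and 2 and not 1 were lower with the same total, Hsph1 being added. Leaving out 1 library at a time gave 3 to 8 lower and 0 higher in H19Ter against WT (3 without H19Ter replicate 4), 5 lower and 0 to 1 higher in H19Ter+neo against WT, and 1 to 2 lower and 1 to 3 higher between the mutants. The genes called overall ranged from 1408 (without WT replicate 2) to 5870, from 7730 to 11118 and from 2326 (without H19Ter replicate 3) to 5404 in the same comparisons, and limma voom called 3092 in H19Ter against WT, where the deposited values gave 5187. The sign of small differences that passed nowhere turned: in H19Ter against WT, Hspa1a was 0.05 with the same total and ranged from -0.22 to 0.17 with 1 library left out; in H19Ter+neo against WT, Hspa1b was 0.00 with median-ratio size factors and ranged from -0.23 to 0.24, and Hspb1 from -0.01 to 0.26; between the mutants, Dnajb1 was 0.05 with the GC and length trend removed and ranged from -0.12 to 0.02, and Hspb1 from -0.26 to 0.10. The causes were not tested. Where a single library was left in a group, it was assumed to vary like the others. Low read counts limit Hspb1, and sequence shared with other genes limits Hspa1a. No paired analysis was possible because the replicate numbers 1 to 7 are not shared between genotypes.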
